A study of Mus musculus with 6 samples.

Results

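Olfactory bulb and neuroblast genes were examined as a set of 10 genes, chosen because the bulb is the structure whose supply of new neurons depends on NCAM. The set is Dlx1, Dlx2, Dlx5, Pax6, Meis2, Sox4, Sox11, Dcx, Eomes and Omp. Every probe set whose annotation gave 1 of these symbols and no other was taken, which gave 13 of the 12422 probe sets on the array and 10 of the 8251 genes it names. Membership goes by gene name and uses no measured value as a criterion, but the genes were listed with earlier results of these data known. Samples were total brains of male C57BL/6J mice. The 3 knockout animals carried a constitutive knock-out of Ncam, the gene of the neural cell adhesion molecule, which is missing from every cell and at every age, and the 3 wild-type animals had the same genetic background. Replicates 1 and 2 of either genotype were aged 2 months and replicate 3 was aged 3 months, and every animal had an Affymetrix one-colour array of its own, so n = 3 for each genotype. The labels do not say whether the olfactory bulbs stayed attached at dissection, so the amount of bulb in each sample is unknown and its part in the values of bulb genes was not tested.

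New interneurons of the adult olfactory bulb are born in the subventricular zone and travel to the bulb as chains of neuroblasts in the rostral migratory stream. These neuroblasts carry NCAM decorated with polysialic acid, and mice without NCAM are known for a small bulb and for neuroblasts that accumulate on their way. In the bulb the arrivals become granule and periglomerular cells, while mitral and tufted cells, born in the embryo, relay the input of olfactory sensory axons to the cortex.

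The brightest Ncam1 probe set read 276, 209 and 327 in knockout brains, against 1346, 1448 and 1216 in wild-type brains (log2 difference -2.26 ± 0.15 SE, adjusted p = 0.00076, limma), so the target's signal followed the labels. A less specific set read 71.2 to 101 against 141 to 155 (log2 difference -0.68 ± 0.15, adjusted p = 0.416), and the dim one 3.53 to 6.92 against 4.54 to 8.49. The position of these sets relative to the deleted part of the gene was not known here. All arrays had the same scaled mean, and medians ran from 119.2 to 130.2. Gapdh control signal at the 3' end over that at the 5' end, a sign of RNA quality, was 0.811 to 0.826 in knockout brains, against 0.768 to 0.798 in wild-type brains. These ranges did not overlap. The same ratio of the actin control was 1.14 to 1.22 against 1.08 to 1.20, with overlap. The part of RNA quality in the differences below was not tested. Summed signal of 12 cerebellar markers was 4798 in knockout replicate 2 and 12530 to 14060 on the other arrays. Summed signal of 8 pituitary markers was 15820 in knockout replicate 1 and 985 to 1401 elsewhere.

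None of the 10 genes passed the test between knockout and wild-type brains, Dcx and the Dlx, Sox and Pax6 factors of the neuroblast lineage included. Of the 13 probe sets, 8 sets of 7 genes were bright enough to be tested, with a mean at or above the 40th percentile of the array (a signal of 72.2). Dlx2, Omp, both Eomes sets and the dimmer Sox11 set were not. Of those tested, 0 passed at an adjusted p under 0.05 in limma (0.0268% of all 7453 tested sets passed) and 0 had an unadjusted p under 0.05 (6.94% of all sets). Knockout and wild-type signals were fully separated for 2 of the 8 sets, 1 with knockout above and 1 with knockout below, where 12.9% of all tested sets did not overlap. In the tested sets 5 log2 differences were above 0 and 3 below, with a median of 0.13 beside 0.0017 over all tested sets. In a fit of all probe sets without the brightness limit, 8 of the 13 differences were above 0 and 5 below, none passed, and none had an unadjusted p under 0.05. A whole brain holds the bulb as a small part, and in such samples fewer cells of a type and less RNA per cell cannot be told apart.

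**Figure D1:**
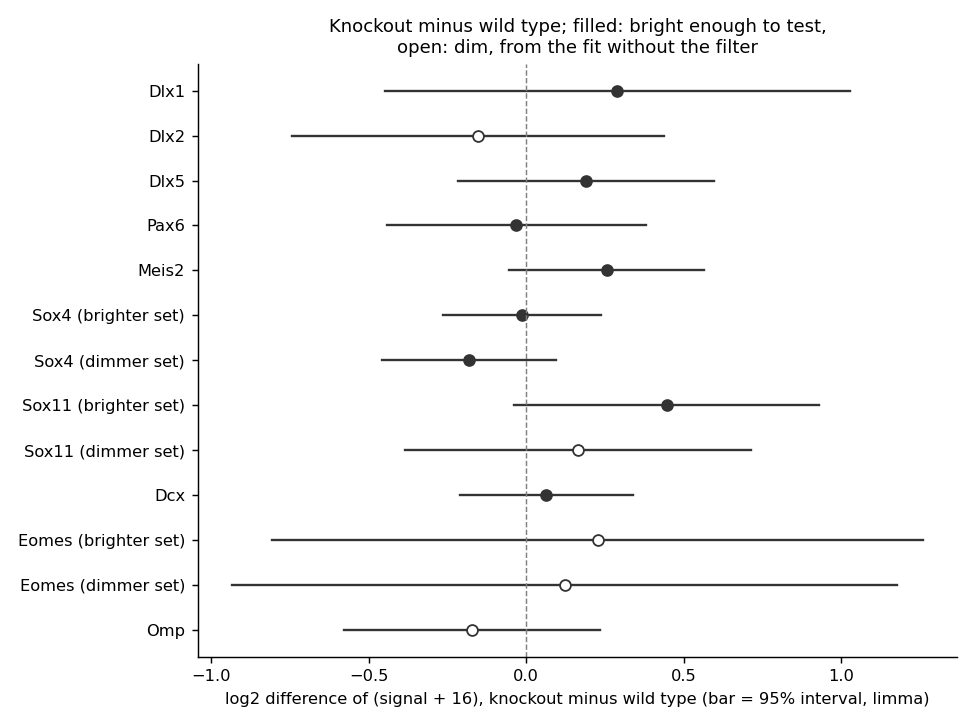
Log2 difference of signal plus 16, knockout minus wild type, for the 13 probe sets (x axis), with 95% intervals from limma. Filled points are the 8 tested sets and open points the 5 dim ones, taken from the fit without the brightness limit, and all 13 intervals include 0.

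The Dlx genes encode homeodomain factors that direct progenitors of the ventral forebrain and subventricular zone to an interneuron fate. Dlx1 read 77.8, 144 and 75.6 in knockout replicates 1, 2 and 3, against 40.6, 90.3 and 109 in wild-type replicates 1, 2 and 3. The groups overlapped, with the highest value in knockout replicate 2 and the lowest in wild-type replicate 1. The log2 difference was 0.29 ± 0.33 (SE), with a 95% interval of -0.45 to 1.03 (adjusted p = 0.861, limma), and it was -0.05 without wild-type replicate 1. Dlx5, which acts later than Dlx1 in the same lineage, read 98.1, 104 and 74.0 against 77.5, 68.9 and 89.0. The 2 younger knockout animals lay above all wild-type animals and the older one among them. Its log2 difference was 0.19 ± 0.18 (interval -0.22 to 0.59, adjusted p = 0.845), and it was 0.11 without knockout replicate 2, 0.12 without wild-type replicate 2 and 0.32 without knockout replicate 3. Dlx2 was dim, with 63.0, 59.5 and 31.0 in knockout against 45.1, 61.1 and 65.7 in wild-type brains, and knockout replicate 3 stood lowest. Without the brightness limit its log2 difference was -0.15 ± 0.25, so the Dlx differences had no common sign.

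Pax6, a paired-box factor needed for dopaminergic periglomerular cells and also active in cerebellar granule cells, read 159, 107 and 122 in knockout brains, against 156, 133 and 107 in wild-type brains. Both groups covered the same range, with means of 129 ± 26.4 and 132 ± 24.6 (SD, n = 3 each). The log2 difference was -0.03 ± 0.18 (interval -0.44 to 0.38, adjusted p = 0.985). Knockout replicate 2, whose cerebellar marker signal was low, had the lowest Pax6 value of its group, and the difference was 0.08 without that animal (adjusted p = 0.914).

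Meis2, a homeodomain partner of Pax6 in that same neuron class and a gene of striatal neurons, was the member with knockout signals above all wild-type signals. It read 120.2, 142 and 131 in knockout brains, against 116, 107 and 99.1 in wild-type brains, so the nearest values lay 120.2 to 116. Means were 131 ± 10.9 and 107 ± 8.26 (SD, n = 3 each), and the log2 difference of 0.26 ± 0.14 did not pass (interval -0.05 to 0.56, adjusted p = 0.743). It ran from 0.18 to 0.31 over 16 alternative settings. Among all tested sets, 6.08% had every knockout signal above every wild-type signal. The summed signal of 5 striatal markers was 5485 to 6558 in knockout brains, against 5436 to 5645 in wild-type brains, and knockout replicate 2 was highest both there and for Meis2. The part of striatal tissue in the Meis2 values was not tested.

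The SoxC factors Sox4 and Sox11 switch on neuronal genes in newborn neurons, Dcx among them. Sox11 had the largest difference of the tested sets. Its brighter probe set read 314, 385 and 271 in knockout brains, against 165, 232 and 317 in wild-type brains, with means of 323 ± 57.8 and 238 ± 76.2 (SD, n = 3 each). The 3-month-old wild-type animal lay above knockout replicates 1 and 3, so the groups overlapped. The log2 difference was 0.45 ± 0.21 (interval -0.04 to 0.93, adjusted p = 0.742, limma). It was 0.22 without wild-type replicate 1 and 0.66 without wild-type replicate 3. In the 4 animals of 2 months alone it was 0.78 (adjusted p = 0.607). The dimmer Sox11 set, of a less specific kind, read 50.4, 50.3 and 46.4 against 48.4, 25.9 and 56.2, and its log2 difference in the fit without the brightness limit was 0.16 ± 0.24.

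Sox4 was read by a pair of probe sets. The brighter one gave 385, 358 and 419 in knockout brains, against 438, 348 and 390.2 in wild-type brains, with a log2 difference of -0.01 ± 0.11 (interval -0.26 to 0.24, adjusted p = 0.991). The groups overlapped throughout. The dimmer one gave 135, 146 and 149.9 against 160.3, 180.3 and 155, and here every knockout signal lay below every wild-type signal. Its log2 difference of -0.18 ± 0.12 did not pass (interval -0.46 to 0.09, adjusted p = 0.790), and 6.8% of all tested sets showed this order. The sets of this gene therefore differed in whether the groups overlapped.

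Dcx encodes doublecortin, the microtubule protein of migrating neuroblasts and the marker by which they are usually counted. It read 225, 221 and 194 in knockout brains, against 201, 227 and 183 in wild-type brains. Means were 213 ± 16.8 and 204 ± 22.0 (SD, n = 3 each), with full overlap. The log2 difference was 0.06 ± 0.12 with an interval of -0.21 to 0.34 (adjusted p = 0.927), which bounds a difference of whole-brain signal on either side of 0.

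Eomes and Omp are read here for mitral and tufted cells and for sensory neurons, and neither measures the bulb alone. Eomes, also called Tbr2, is a T-box factor of mitral and tufted cells and of intermediate progenitors of the hippocampal dentate gyrus. Its brighter probe set read 8.18, 5.38 and 47.5 in knockout brains, against 5.92, 5.49 and 27.5 in wild-type brains. The dimmer one read 1.54, 1.73 and 37.4 against 1.78, 4.12 and 20.0. In both sets the replicate 3 animal of each genotype stood far above the other 4 animals, and genotypes overlapped. Without the brightness limit the log2 differences between genotypes were 0.23 ± 0.44 and 0.12 ± 0.45. Omp, the olfactory marker protein of mature olfactory sensory neurons, whose axons end in the bulb, read 64.6, 55.6 and 65.9 against 74.6, 63.1 and 78.5. Wild-type replicate 2 lay among the knockout values. Means were 62.0 ± 5.62 and 72.1 ± 7.97, and the log2 difference without the brightness limit was -0.17 ± 0.17 (interval -0.58 to 0.23, adjusted p = 0.892).

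**Figure D2:**
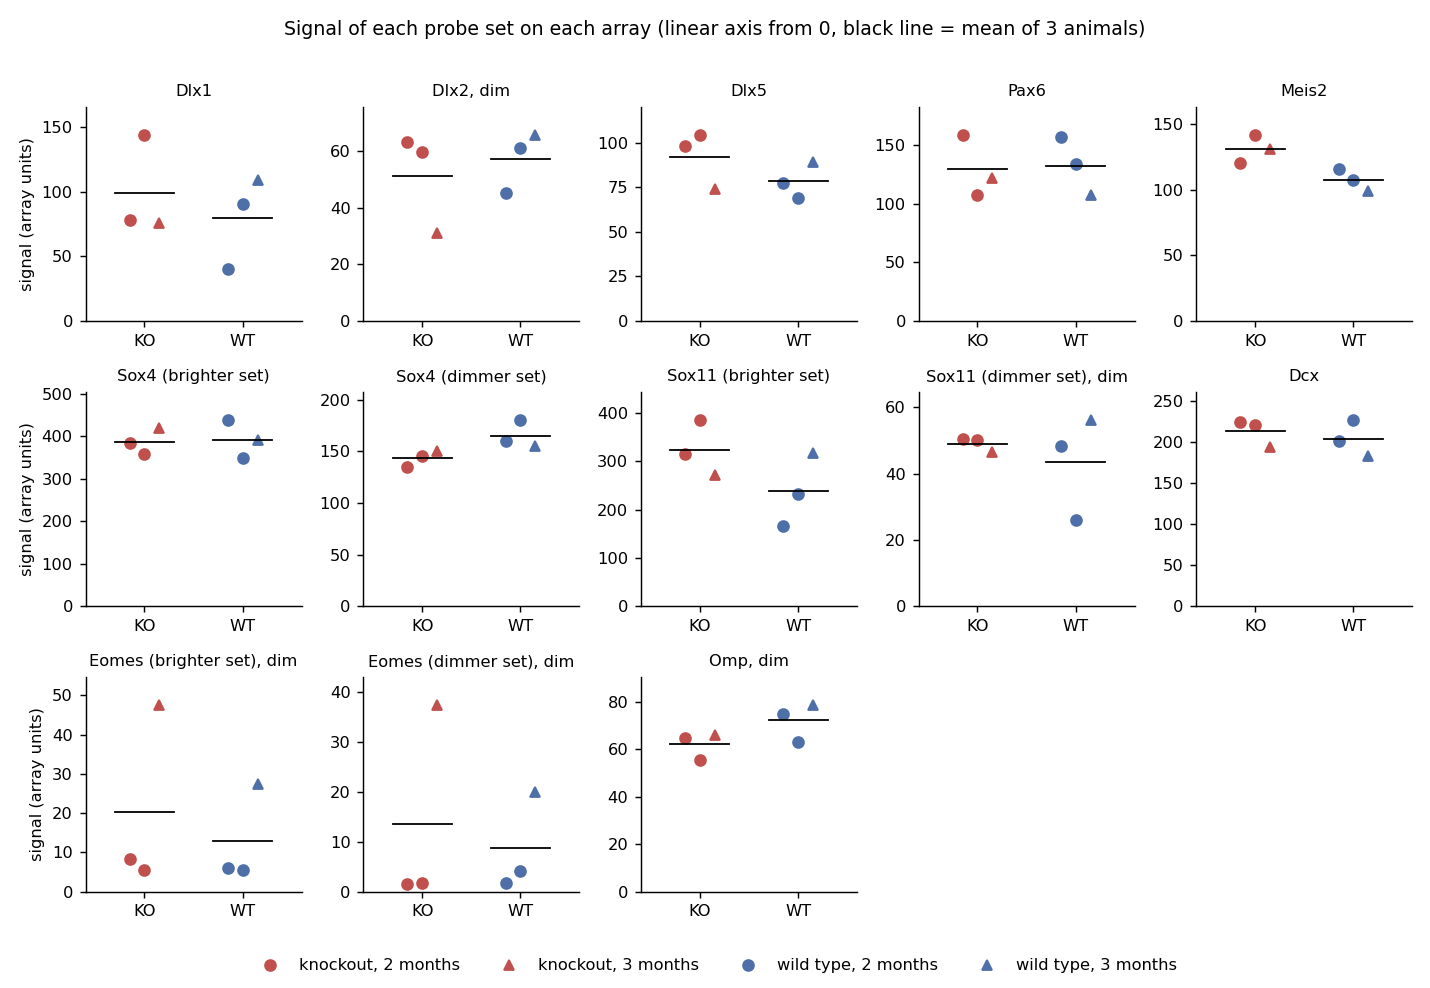
Signal of each of the 13 probe sets (y axis, array units, linear from 0) in the 3 knockout (KO) and 3 wild-type (WT) brains, with circles for animals of 2 months, triangles for 3 months and a line at each group mean. Meis2 and the dimmer Sox4 set are separated by genotype, and both Eomes sets have their high values in the triangles.

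Because the older animals stood apart for Eomes, age was fitted beside genotype over all 12422 probe sets, a comparison added after the member values had been seen. The 3-month-old animals were 2, 1 of each genotype, and the 2-month-old ones 4. The log2 difference, 3 months minus 2 months, was 1.24 ± 0.16 for the brighter and 1.26 ± 0.17 for the dimmer Eomes set, with unadjusted p of 0.000127 and 0.000186 and an adjusted p of 0.154 for both (limma), so neither passed. These values rest on signals of 20.0 to 47.5 at 3 months and 1.54 to 8.18 at 2 months, all below the brightness limit of 72.2. No detection calls were used, so these values do not show that the 2-month signals lie above background, and the size of the difference depends on the 16 added before the logarithm. Over all sets, 0.00805% passed and 12.1% had both 3-month signals above all 2-month signals, as 2 of the 13 sets here did. Dcx ran the other way, with 194 and 183 at 3 months against 201 to 227 at 2 months (log2 difference -0.20 ± 0.11, adjusted p = 0.561). This was 1 of the 13 sets with both 3-month signals below the rest, an order found in 7.85% of all sets. Replicate number and age coincide, so a property of the replicate 3 brains other than age cannot be told apart from age.

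**Figure D3:**
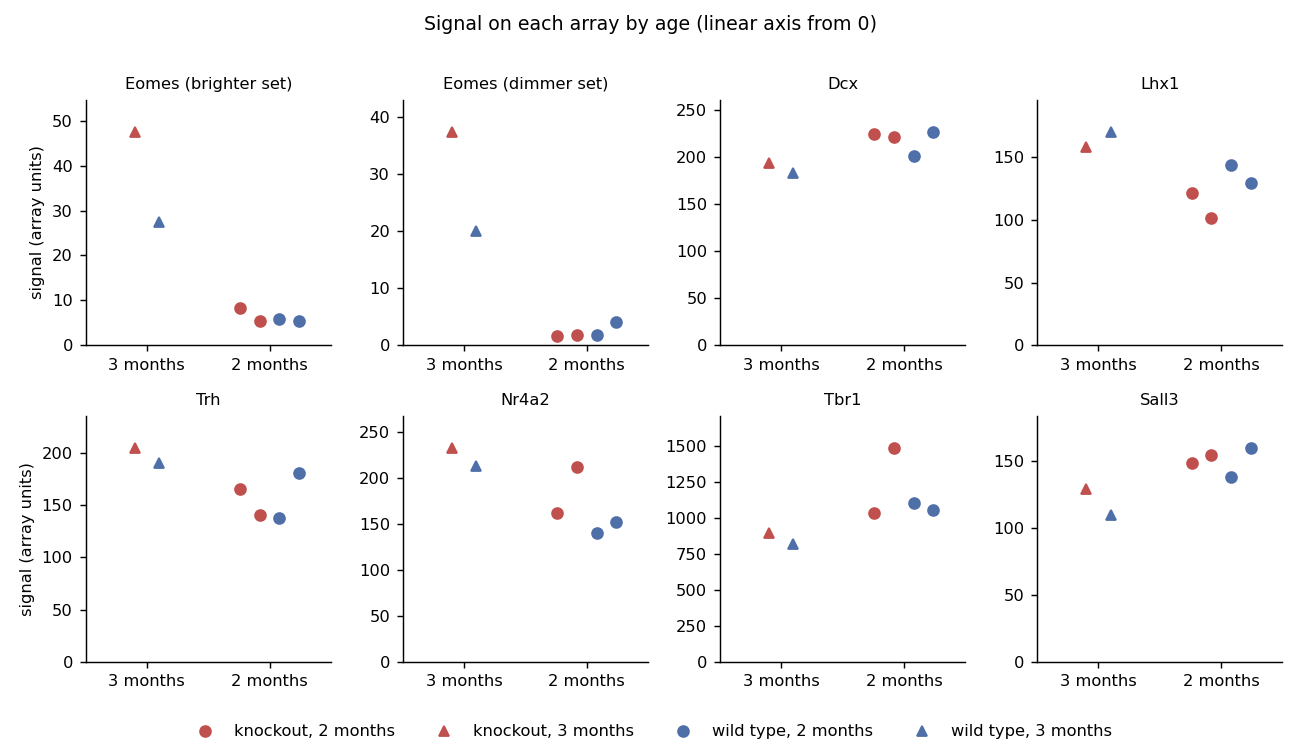
Signal on each array (y axis, array units, linear from 0) at 3 and 2 months for Eomes, Dcx and the 5 of 11 bulb neuron genes whose ages did not overlap, in knockout (red) and wild-type (blue) brains. Both Eomes sets are at 20.0 or more at 3 months and at 8.18 or less at 2 months, and Lhx1, Trh and Nr4a2 lie higher at 3 months while Dcx, Tbr1 and Sall3 lie lower.

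Whether the genotype difference itself varied with age was tested with an interaction term, also added afterwards. Among the 8 tested sets 0 passed after adjustment (0.0268% of all tested sets did) and 1, the brighter Sox11 set, had an unadjusted p under 0.05 (5.7% of all). For it the difference at 3 months minus that at 2 months was -0.995 ± 0.318 on the log2 scale (unadjusted p = 0.0179, adjusted p = 0.823, limma). Sox11 read 314 and 385 in the 2-month knockout animals against 165 and 232 in their wild-type counterparts, and 271 against 317 at 3 months. Dlx5 showed the same order, with 98.1 and 104 against 77.5 and 68.9 at 2 months and 74.0 against 89.0 at 3 months (-0.62 ± 0.32, adjusted p = 0.859). The largest estimate was that of Dlx1, -1.11 ± 0.65 (adjusted p = 0.897). In all, 3 of the 8 sets had terms below 0 and 5 above, with 0.29 ± 0.36 for Pax6, 0.21 ± 0.25 and 0.17 ± 0.23 for Sox4, 0.15 ± 0.29 for Meis2 and 0.02 ± 0.23 for Dcx. Each genotype had 1 animal of 3 months, so the spread behind these errors comes from the 2-month animals alone and the older ones are assumed to vary like them.

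Other genes of neuroblasts and their migration gave 0 calls in limma after adjustment, and at an unadjusted p under 0.05 there was 1 higher and 0 lower. In either direction, 6.94% of all tested sets had such a p. Of 33 listed genes 19 had a probe set of their own and 11 were bright enough to test, 8 with differences above 0 and 3 below, and a median of 0.06 on the log2 scale beside 0.0017 over all sets. Cd24a, a surface glycoprotein of migrating neuroblasts and ependymal cells, had the lowest p. It read 368, 389.9 and 382 in knockout brains, against 281, 287 and 329 in wild-type brains, without overlap. The log2 difference of 0.33 ± 0.10 had an unadjusted p of 0.00792 and did not pass (adjusted p = 0.548). Sox2, a factor of neural stem cells measured by a probe set of a less specific kind, read 960 to 1138 against 709 to 951 (0.25 ± 0.12, adjusted p = 0.742). Cd24a and Sox2 were the 2 of 11 tested genes with knockout wholly above wild type, an order found in 6.08% of all tested sets. On the lower side, Reln, the secreted guidance protein reelin, had -0.13 ± 0.15 and Nes, the stem cell filament nestin, -0.12 ± 0.18. The neuronal tubulin Tubb3 had 0.02 ± 0.07 by its brighter set and -0.07 ± 0.09 by its other set, both of a less specific kind.

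The list of olfactory bulb neuron genes also gave 0 calls in limma, and at an unadjusted p under 0.05 it had 0 higher and 1 lower. Among all tested sets, 6.94% had such a p in either direction. Of 18 listed genes 11 had a probe set and 9 were tested, 5 above 0 and 4 below, with a median of 0.0059. Calb2 encodes calretinin, a calcium-binding protein of bulb granule and periglomerular cells that cerebellar granule cells also contain. It read 1402, 1051 and 1362 in knockout brains, against 1440, 1609 and 1544 in wild-type brains. Every knockout signal lay below every wild-type signal, the lowest being that of knockout replicate 2, the animal with low cerebellar signal. The part of cerebellar tissue in the Calb2 values was not tested. Among all tested sets, 6.8% showed this order. For Calb2 the log2 difference was -0.28 ± 0.11 (unadjusted p = 0.0347, adjusted p = 0.719). Lhx1, a mitral and Purkinje cell factor, had -0.21 ± 0.18, Tbr1, a factor of mitral and cortical projection neurons, 0.17 ± 0.18, and Nr4a2 0.25 ± 0.18. Th, the dopamine synthesis enzyme of periglomerular and midbrain neurons, read 187 to 282 against 214 to 287, a log2 difference of -0.05 ± 0.16. By age, 3 of the 11 genes had both 3-month signals above all 2-month signals (12.1% of all sets) and 2 had them below (7.85% of all sets). Lhx1 read 158 and 170.1 at 3 months against 101 to 143 at 2 months, and Trh 205 and 190.2 against 138 to 181. Nr4a2 read 233 and 213.2 at 3 months against 140.2 to 212.6 at 2 months by its brighter set, a narrow gap, while its other set overlapped. Tbr1, 891 and 819 against 1034 to 1482, and Sall3, 129 and 109 against 138 to 159.6, were lower in both 3-month brains.

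**Figure D4:**
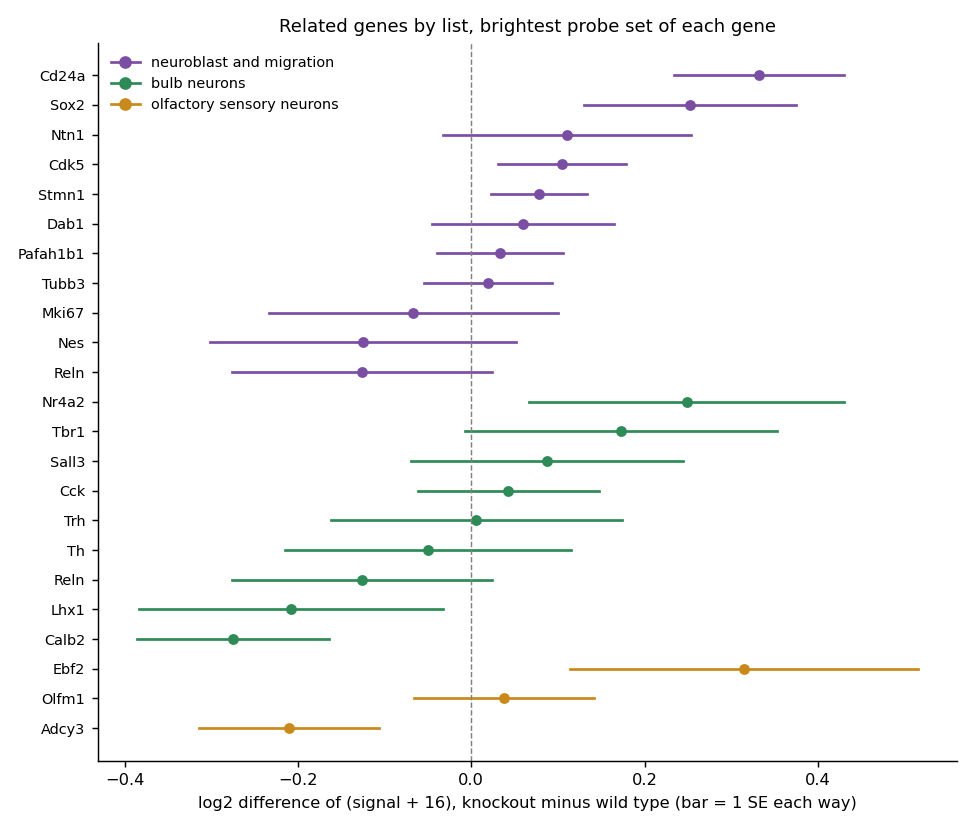
Log2 difference of signal plus 16, knockout minus wild type (x axis), with 1 SE each way, for the tested genes of the neuroblast, bulb neuron and olfactory sensory neuron lists, by the brightest probe set of each gene. Cd24a and Ebf2 lie highest, Calb2 and Adcy3 are among the lowest, and no gene passed the adjusted test.

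Of 14 listed genes of olfactory sensory neurons other than Omp, 6 had a probe set and 3 were tested, with 0 calls in limma and 0 at an unadjusted p under 0.05. Of the tested genes 2 were above 0 and 1 below, with a median of 0.04. Summed signal of the 6 genes was 2086 to 2715 in knockout brains, against 2297 to 2409 in wild-type brains, with overlap. Adcy3, the adenylyl cyclase of olfactory cilia that is also found in cilia of brain neurons, read 265, 263 and 226 in knockout brains, against 304, 290.3 and 283 in wild-type brains. Every knockout signal lay below every wild-type signal, as in 6.8% of all tested sets. The log2 difference of Adcy3 was -0.21 ± 0.10 and did not pass (adjusted p = 0.743). Ebf2, a helix-loop-helix factor, had 0.31 ± 0.20, and Olfm1, a secreted protein found throughout the brain, 0.04 ± 0.10. Cnga2, the olfactory cyclic nucleotide channel that sensory neurons require, stayed between 5.13 and 14.5 in all samples.

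Marker lists of neighbouring tissue were read beside these genes. The 12 tested cerebellar genes all had lower means in knockout brains (median log2 difference -0.59). Those with the lowest p were Pcp2 at -0.58 ± 0.28 and Cbln1 at -0.87 ± 0.42, while the difference was larger for Gabra6, at -1.91 ± 1.24 by its brightest set. Gabra6, the granule cell receptor subunit, read 11.8 in knockout replicate 2 and 1254 to 1388 on the other arrays. The 6 tested pituitary genes had higher means (median 1.14), with Prl at 2.32 ± 0.87 and Pomc at 1.43 ± 0.59. Of 8 tested myelin genes 5 were below 0 (median -0.15). By each gene's brightest set the lowest p were those of Ugt8a at -0.43 ± 0.11 and Mag at -0.44 ± 0.12, and Cldn11 and Sox10 had 0.10 ± 0.22 and 0.03 ± 0.08. Mobp had -0.21 ± 0.07 by its brightest set, and its other sets had -0.60 ± 0.09, -0.42 ± 0.07 and -0.22 ± 0.14. The sets at -0.60 and -0.42 each had a lower p than Mag or Ugt8a (adjusted p = 0.132 for either, limma). Striatal genes had a median of 0.02, with Tac1 at 0.18 ± 0.13, Penk at 0.08 ± 0.07, Drd2 at -0.08 ± 0.12 and Pdyn at -0.04 ± 0.12. No gene of these lists passed. No listed marker was at 0 on any array, but without detection calls this does not show that each was detected. The myelin gene Cnp, for instance, read 8.52 to 38.2. The summed signal of 9 myelin markers was 12970 to 14460 in knockout brains, against 14560 to 15550 in wild-type brains, and these ranges were separate. The part of these tissue differences in the values of the 10 genes was not tested.

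**Figure D5:**
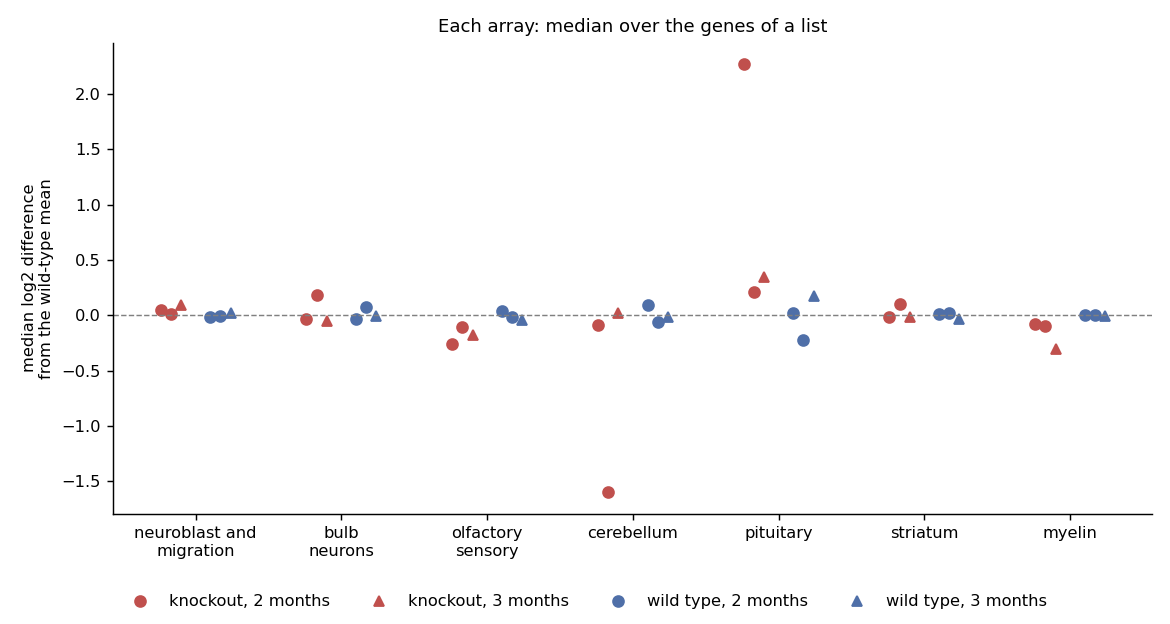
Median, over the genes of each list, of the log2 difference between an array and the wild-type mean (y axis), for the 3 knockout and 3 wild-type brains. The sensory neuron list, with dim genes included, lies at -0.26 to -0.11 in knockout brains, against -0.04 to 0.04 in wild-type brains. The myelin list lies at -0.31 to -0.08 against values within 0.01 of 0, and neither list overlaps. Each gene is centred on the wild-type mean, which holds wild-type values near 0, so this separation is partly built in. The sensory list overlapped in summed signal, most of which was Olfm1, and the median difference of its 3 tested genes was 0.04. Neuroblast, bulb neuron and striatal lists stay within 0.18 of 0 on every array, whereas knockout replicate 2 is at -1.6 for cerebellum and knockout replicate 1 at 2.27 for pituitary.

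Across the 6 arrays the tested members did not follow a common course. Pearson's r of log2 signal was 0.90 between Dlx1 and Sox11, 0.74 between Dlx5 and Sox11, and -0.80 between Dlx1 and Pax6, and for Dcx it ran from -0.65 with Sox4 to 0.36 with Pax6. These are descriptions of 6 points that share arrays, ages and genotypes. Of all genes tested, those most like Dcx were Tpi1, Arl1 and Tmeff1 (r of 0.993, 0.991 and 0.981). Those most like Sox11 were 4930453N24Rik, Fam126b and Noct (0.968, 0.966 and 0.961), and those most like Meis2 were Efnb2, Top1 and Psma1 (0.987, 0.981 and 0.978). Pax6 was closest to Agpat1, Nkx6-2 and Odc1 (0.995 to 0.983), Dlx1 to Cyb5a, Tmem214 and Xrcc1 (0.968 to 0.958), Dlx5 to Actn4, Psmc6 and Kcnj4 (0.995 to 0.985), and Sox4 to Slco5a1, Crygs and Mbd6 (0.979 to 0.975). All 21 of these r were at or above 0.958, taken as the highest of all tested genes over only 6 arrays.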

How the data were processed

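Total RNA of 6 brains was measured on one-colour arrays, 1 animal per array, per the labels. The authors deposited linear signal intensities per probe set, made with GCOS 1.4 per the submitters' processing notes. The sources used here do not give its settings. From the values, each array was scaled to a mean of 300.2 over the middle 96%, which would hide a change in total RNA. No detection calls were used, and the number of arrays limits the precision.

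Of 12488 entries 66 controls were set aside. Genes were named from the platform annotation, which can be old, and only for the 10833 probe sets with 1 symbol (396 had several, 1193 none). Values were transformed as log2(signal + 16), and the 7453 probe sets at or above the 40th percentile of mean log2 were fitted with limma 3.58.1 in R 4.3.3 (intensity trend, two-sided, no covariates), knockout minus wild type, with Benjamini-Hochberg adjustment over all of them and a threshold of 0.05. A run of the procedure on simulated data used independent noise without age or tissue effects, so it does not cover such effects in these arrays. P-values set each difference against the spread within groups, moderated across all tested probe sets. That spread includes the age difference within each group and measurement noise.

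Members, lists, settings and the naming rule were chosen with earlier results of these data known. The rule names every probe set of the members and of Ncam1, the 2 lowest p in each direction of each list by the brightest probe set, and the 3 genes most correlated with each tested member. Tubb3, Th, Trh, Sall3, Cnga2, Gabra6, Mobp, Nmb, S100a5 and Igfbpl1 were named after their values were seen. The age and interaction fits were added after the values were seen. Figures were drawn with matplotlib 3.10.9.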

Additional observations from a re-analysis of the deposited data

How the results depend on the processing

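No probe set of the 10 genes passed under any of the 17 alternatives in which it was tested, which covered 8 sets in most, 3 with the limit at the 60th percentile and 13 without a limit, where alone the 5 dim sets were tested. The brightest Ncam1 set stayed lower in knockout brains and passed in all 17, with log2 differences of -2.08 to -2.46. The number of all probe sets called was 2, and 1 under quantile normalisation, median centring, no brightness limit or no intensity trend, 3 in the 2-month-old animals alone, and 4 with array weights. Leaving out each array in turn gave 1 to 3 calls. With the replicate number as a block the counts were 0 for the 10 genes and 2 for all probe sets, as without it. Correlations of same-numbered deviations were 0.0149, 0.147 and 0.201, against -0.221 to 0.0814 between animals of unlike number. Knockout replicate 1 correlated best with wild-type replicate 2 (0.0814). Age goes with the number, so these values cannot decide whether the numbers pair the animals. Among members, the sign of the difference turned in 1 setting for Dcx (without wild-type replicate 3, at -0.0044), 1 for Dlx1, 3 for Pax6 and 2 for the brighter Sox4 set, and in none for Meis2, Dlx5, Sox11 or the dimmer Sox4 set. The cause was not tested. Sox11 with array weights had the lowest adjusted p of any member (0.385). Signals under 72.2 limit what can be read from Dlx2, Omp and Eomes.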

Other observations

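Several dim genes of the olfactory system differed between single brains in a way that genotype did not follow. S100a5, a calcium-binding protein of olfactory sensory neurons, read 18.4, 93.6 and 24.9 in knockout replicates 1, 2 and 3, against 19.4, 55.7 and 23.5 in wild-type replicates 1, 2 and 3. Nmb, a neuropeptide of bulb tufted cells, read 34.0, 71.5 and 39.4 against 44.2, 55.8 and 49.5. Both were highest in the replicate 2 animal of each genotype, whereas Eomes was highest in the replicate 3 animals. Other listed genes of the olfactory system did not share this order. In the replicate 2 animals of knockout and wild type, Lhx1 (101 and 129) and Ebf2 (69.9 and 65.6) were instead lowest. The amount of bulb in each sample is unknown, and its part in these values was not tested. All signals of S100a5, Nmb and Eomes except the 93.6 of S100a5 were below the brightness limit of 72.2.

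The probe sets of Igfbpl1, a gene of newborn neurons, went opposite ways. One read 40.4, 65.3 and 18.6 in knockout brains, against 8.78, 8.95 and 10.96 in wild-type brains, and its log2 difference without the brightness limit was 1.08 ± 0.29. The other, of a less specific kind, read 12.0, 16.1 and 11.8 against 29.6, 26.1 and 36.4, with a difference of -0.67 ± 0.15. Groups did not overlap in either set, as in 12.9% of all tested sets, and this share was not taken for dim sets. All signals were below the limit, and no direction is given for this gene.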
